A study of Mus musculus with 4 samples.

Results

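Chitinases and the antibody transport system of the stomach lining were followed through 5 mouse genes: Chil3, Chia1 and Chil1 of the chitinase family, the antibody receptor Pigr, and Jchain. They are 5 of 13840 named genes on the array, read by the 6 of its 33012 probes that the platform annotation assigns to exactly 1 of these symbols. The genes were chosen by name with their signals and congenic minus wild-type differences already known, so both are given as a description, with no p for any member. Stomach RNA was measured in B6.CAST-17 mice, a homozygous congenic strain that by its name carries a CAST-derived segment of chromosome 17 on a B6 background, and in wild-type C57BL/6J mice. All mice were males on chow, food deprived for 4 h, and their ages are not given in the labels. Each group consisted of 2 RNA pools of 3 animals, with 1 single-colour array for each pool. The pools hide the spread between single animals. Levels are log2 signals as deposited, and differences are congenic minus wild type on that scale. A pool without a value is a blank in the table, whose rule is not given, and a blank was not read as an absent transcript.

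Chitinases cut chitin, the polymer of insect cuticle and fungal wall. Chia1, acidic mammalian chitinase, is an active enzyme made in quantity by the mouse stomach, while Chil3 (Ym1) and Chil1 are chitinase-like proteins that keep the fold without the activity. Chil3 is best known from neutrophils and from alternatively activated macrophages, and in these macrophages interleukin 4 and interleukin 13 act through STAT6. Pigr sits on the basal face of epithelial cells, binds polymeric IgA and IgM that contain the joining chain encoded by Jchain, and carries them to the lumen, where its outer part is released as secretory component. Jchain is made by antibody-secreting plasma cells. Polymeric antibody delivery therefore needs both the plasma cell product and the epithelial receptor.

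The table gave values for 16954 and 16871 probes in congenic pools 1 and 2, against 16320 and 16326 in wild-type pools 1 and 2, and 13475 probes had a value on all 4 arrays. Of these, 64 (0.475%) differed between strains at a limma adjusted p under 0.05: 39 (0.289%) were higher and 25 (0.186%) lower in congenic stomach. Before adjustment, 2127 probes (15.8%) had p under 0.05, the share to set beside each unadjusted count given for a list or for neighbouring genes. The count of 64 depended on the setting: it was 35 with the replicate number as a block and 20 without the variance trend. It also changed when single pools were left out. Gastric markers were bright in every pool: the proton pump gene Atp4b read 18.81 and 18.82 in the congenic pools, against 18.81 and 18.74 in wild type. In wild-type pool 1 the intrinsic factor gene Cblif read 19.02, against 20.14 in wild-type pool 2 and 20.20 and 20.24 in the congenic pools.

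Of the 5 genes, Chia1, Pigr and Jchain had 1 probe each with a value in all pools, and Chil3 had 1 such probe and another with 3 values. Chil1, the homologue of a protein of human inflamed tissue and cartilage, had no value in any pool on its 1 probe, as was so for 12295 of the 33012 probes. No level or difference is therefore given for Chil1. None of the 5 genes lies on chromosome 17, the chromosome of the congenic segment: Pigr and Chil1 are on chromosome 1, Chil3 and Chia1 on chromosome 3 and Jchain on chromosome 5.

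Chil3 was the member with the largest difference. Its probe with values in all pools (754283) read 15.99 and 15.87 in the congenic pools, against 14.25 and 14.20 in the wild-type pools. Both congenic pools lay above both wild-type pools, and the nearest pair of pools from opposite strains was 1.63 apart. Chil3 averaged 15.93 ± 0.083 in congenic pools and 14.22 ± 0.037 in wild-type pools (SD, n = 2 each), a difference of 1.71, or 3.27-fold. Of the 13475 probes, 20 had a larger positive difference. Within an array, the same probe lay above 91.5% and 90.8% of all values in the congenic pools, against 77.5% and 76.7% in the wild-type pools.

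A second Chil3 probe (324510) read 13.24 and 13.34 in the congenic pools, against 11.79 in wild-type pool 1 and no value in wild-type pool 2. The 1 wild-type value lay below both congenic values, by 1.50 on average, or 2.83-fold. Another probe (350348) is annotated to both Chil3 and Chil4, its close copy also called Ym2, and is no member for that reason. It read 16.21 and 16.25 in the congenic pools, against 14.84 and 14.67 in the wild-type pools, a difference of 1.47. All 3 probes were thus higher in congenic stomach by similar amounts. No probe is assigned to Chil4 alone, and which of the copies each Chil3 probe reads was not examined, so the values of Chil3 are uncertain in that respect.

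**Figure D1:**
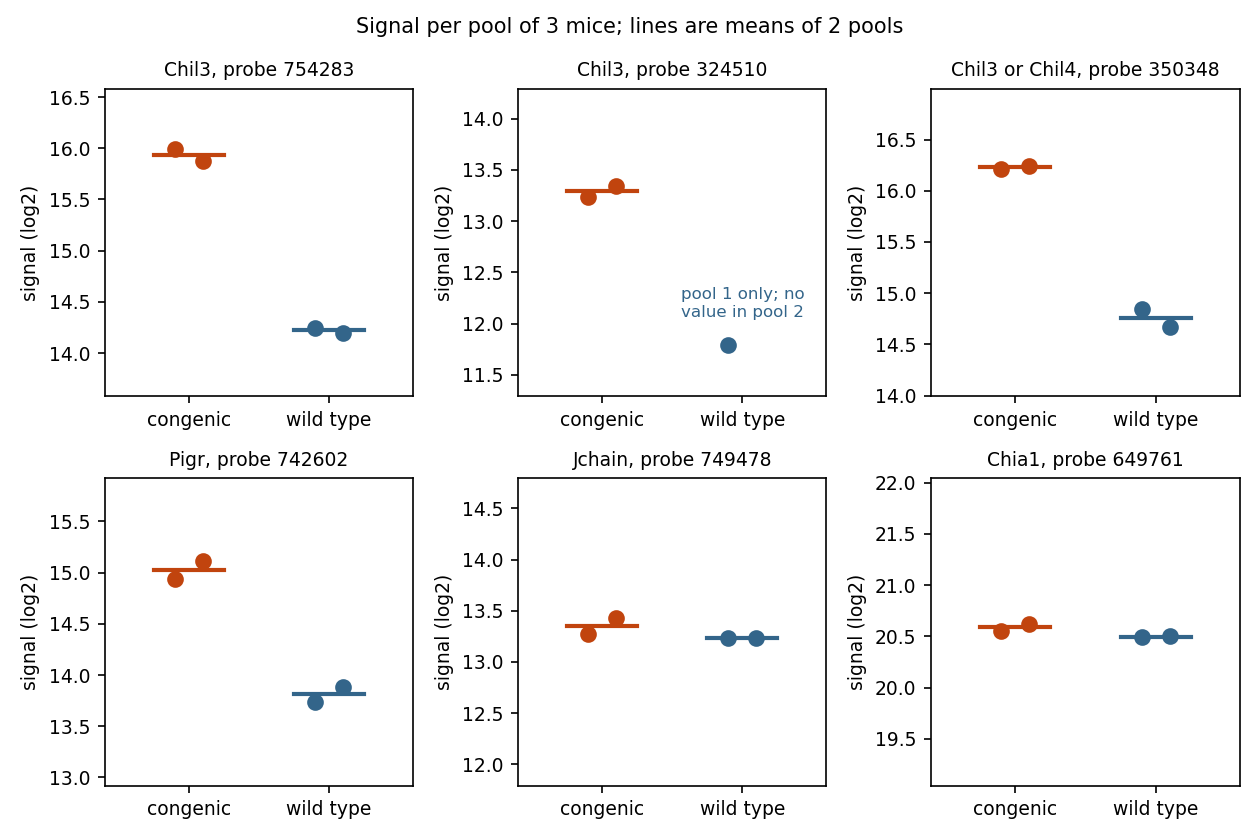
Signal (log2) of each pool for the 4 member probes with values in all pools, the Chil3 probe with 3 values, and the probe shared by Chil3 and Chil4. Points are pools of 3 mice, congenic left and wild type right, lines are means of 2 pools, and every panel spans 3 log2 units. The 3 upper panels and Pigr show congenic pools more than 1 log2 unit above wild type, while Jchain and Chia1 differ by 0.12 and 0.090.

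The closeness of the copies is visible in the 250 bases before their annotated start sites, which are shown because 1 probe names both genes. The sequences are RefSeq's for GRCm38.p6, 5′ to 3′ on the minus strand, at chr3:106167565-106167814 for Chil3 and chr3:106219480-106219729 for Chil4. Capitals mark each base without an identical partner in the alignment of the windows, which includes the ends where they do not overlap.
Chil3: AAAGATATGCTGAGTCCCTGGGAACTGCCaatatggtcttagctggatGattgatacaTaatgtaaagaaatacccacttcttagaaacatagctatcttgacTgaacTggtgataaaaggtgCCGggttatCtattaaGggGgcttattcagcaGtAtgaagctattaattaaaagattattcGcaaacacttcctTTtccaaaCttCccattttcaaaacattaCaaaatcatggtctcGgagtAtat
Chil4: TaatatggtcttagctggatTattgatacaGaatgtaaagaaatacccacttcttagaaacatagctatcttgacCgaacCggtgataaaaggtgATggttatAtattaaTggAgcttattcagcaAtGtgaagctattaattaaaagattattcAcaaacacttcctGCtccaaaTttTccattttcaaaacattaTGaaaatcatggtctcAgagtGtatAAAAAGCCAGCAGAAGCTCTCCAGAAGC
Over 221 aligned bases, 201 (91.0%) were identical. Neither window held the STAT6 motif (TTC, any 4 bases, GAA) on either strand, which 5.85% of 32851 RefSeq promoter windows of this length held. This says only that these letters are not in these windows.

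Pigr, the epithelial antibody receptor, showed the second largest difference. Its probe (742602) read 14.94 and 15.12 in the congenic pools, against 13.74 and 13.88 in the wild-type pools. The strains did not overlap, and the nearest pools of opposite strains were 1.05 apart. Pigr averaged 15.03 ± 0.13 in congenic pools and 13.81 ± 0.10 in wild-type pools (SD, n = 2 each), a difference of 1.21, or 2.32-fold. A larger positive difference was found for 50 of the 13475 probes. The pools of one strain differed from each other by 0.18 (congenic) and 0.14 (wild type), against medians over all probes of 0.13 in both strains.

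The 250 bases before the Pigr start site are shown because the gene is known to respond to NF-kB downstream of tumour necrosis factor and Toll-like receptors. The window is RefSeq's for GRCm38.p6, chr1:130826434-130826683, plus strand, and capitals mark matches to an NF-kB motif (GGG, any 5 bases, CC) on either strand.
Pigr: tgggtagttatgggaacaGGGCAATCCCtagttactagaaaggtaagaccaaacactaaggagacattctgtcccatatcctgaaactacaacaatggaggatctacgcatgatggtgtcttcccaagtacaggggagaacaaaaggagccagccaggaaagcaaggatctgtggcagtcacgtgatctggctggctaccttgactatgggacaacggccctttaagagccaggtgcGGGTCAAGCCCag
It held 3 matches, of which 2 overlap next to the start site, but 45.8% of all windows held at least 1 match. Chil1 held 2 matches and Chil3 held 1, and Chia1 and Jchain held none. The interferon response motif (GAAA, any 2 bases, GAAA), present in 2.98% of windows, and the STAT6 motif were found in none of the 5 genes' windows.

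Jchain, the partner of Pigr on the plasma cell side, differed little. Its probe (749478) read 13.27 and 13.43 in the congenic pools, against 13.24 and 13.23 in the wild-type pools. Congenic pool 1 lay only 0.037 above wild-type pool 1, which is less than the 0.16 between the congenic pools. Jchain averaged 13.35 ± 0.11 in congenic pools and 13.23 ± 0.0032 in wild-type pools (SD, n = 2 each), a difference of 0.12, or 1.09-fold. The antibody receptor and the antibody joining chain thus had strain differences of 1.21 and 0.12, and the difference between these was not tested.

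Chia1, the stomach's own chitinase, was among the brightest probes of every array. It read 20.56 and 20.62 in the congenic pools, against 20.49 and 20.50 in the wild-type pools. Only 13 and 10 probes were brighter in congenic pools 1 and 2, against 16 and 15 in wild-type pools 1 and 2. Chia1 averaged 20.59 ± 0.044 in congenic pools and 20.50 ± 0.0072 in wild-type pools (SD, n = 2 each), a difference of 0.090, or 1.06-fold. The 4 arrays share 1 maximum of 21.2, which the gastric mucosal gene Gkn2 takes on each, so little room is left above Chia1. Whether this compresses its difference was not tested.

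All 4 measured members were higher in both congenic pools than in both wild-type pools, as were 23.4% of all probes compared, while in 49.4% the strains did not overlap in either direction. Chil3 and Pigr were among the 64 probes that passed in limma (0.475% of probes), and Chia1 and Jchain were not. Because the genes were chosen with these results known, nothing is read from either count. The differences of Chia1 and Jchain lay inside the range that holds the central 90% of probes, -0.41 to 0.49, and those of Chil3 and Pigr lay outside it. Leaving out 1 pool at a time moved the difference of Chil3 between 1.65 and 1.77, that of Pigr between 1.13 and 1.30, that of Jchain between 0.039 and 0.20 and that of Chia1 between 0.058 and 0.12.

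**Figure D2:**
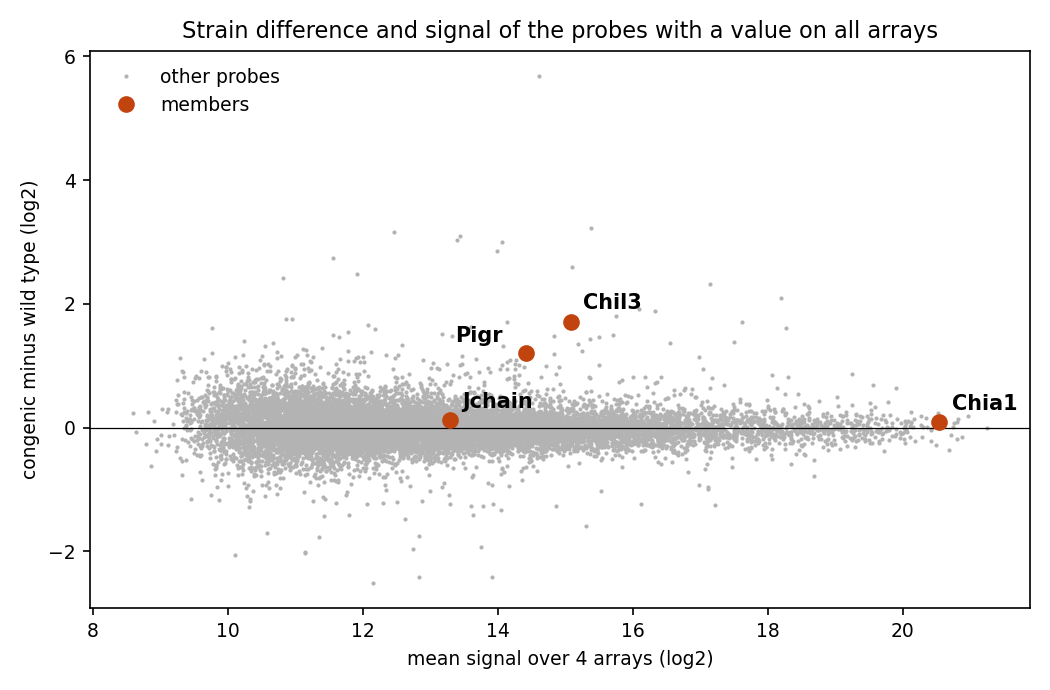
Strain difference (congenic minus wild type, log2) against the mean signal over 4 arrays (log2) for the 13475 probes with a value in all pools. Chil3 (1.71) and Pigr (1.21) lie above the bulk of grey points, and Jchain (0.12) and Chia1 (0.090) lie within it, Chia1 at the bright end.

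The genes beside Chil3, Pigr and Jchain on their chromosomes had smaller differences than Chil3 and Pigr. Because Chil3 and Pigr were chosen with their differences known and the neighbours were not, nothing is read from this contrast. Among the 5 measured genes on either side of Chil3, differences ran from -0.25 (Kcna3, a potassium channel) to 0.57 (Kcnd3, another), with a median of 0.086. None of the 10 passed in limma (1 at an unadjusted p under 0.05, against 15.8% of all probes). Chia1 is the next measured gene before Chil3, and Cept1, an enzyme of phospholipid synthesis, is the next after it (0.12). Around Pigr, the 10 neighbours ran from -0.37 (Ikbke, a kinase of interferon induction) to 0.25 (Rassf5), with a median of -0.044. None of these passed in limma (0 at an unadjusted p under 0.05). Around Jchain the 10 neighbours had a median of 0.14 and a range of -0.16 to 0.51 (Ugt2b38, a glucuronosyltransferase). None of these passed in limma (2 at an unadjusted p under 0.05).

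**Figure D3:**
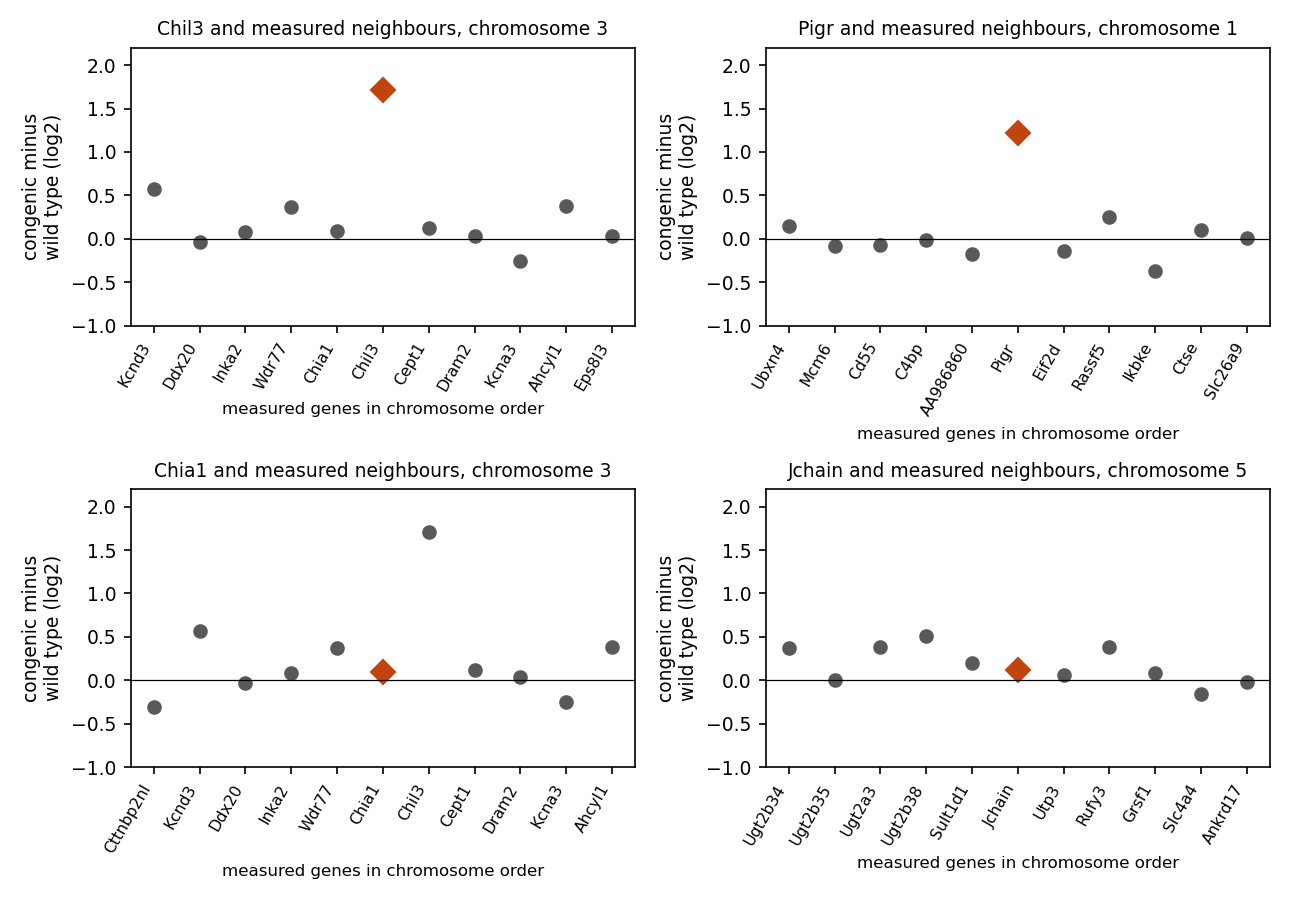
Strain difference (congenic minus wild type, log2) of 4 members (diamonds) and of the 5 genes measured in all pools on either side (circles), in the order of the RefSeq annotation. Chil3 at 1.71 and Pigr at 1.21, chosen with these differences known, stand above neighbours that reach 0.57 and 0.25.

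The named probes whose pattern over the 4 arrays was nearest to that of Chil3, each centred on its own mean, were Msh5, Hpx, Actl6b, Tmprss3 and Dynlt1b, at root mean square distances of 0.028 to 0.18 log2 units. Their differences ran from 1.36 to 1.76, and 3 of the 5 are genes of chromosome 17 (Msh5, Tmprss3 and Dynlt1b), as are 2 of the 5 nearest to Pigr, 1 of 5 for Jchain and 0 of 5 for Chia1. Chromosome 17 held 383 (4.85%) of the 7904 named and placed probes, and 9 (17.6%) of the 51 among them that were over 1 log2 unit higher in congenic stomach. Msh5 read 11.90 and 11.78 in the congenic pools, against 10.09 and 10.06 in wild type. Nearest to Pigr were Rsph1, Cpxm2, Pzp, Thbs2 and Mrvi1, at 0.094 to 0.11, with differences of 1.07 to 1.20. For Jchain the nearest was the cytokine gene Il18 (distance 0.0044), and for Chia1 the polyadenylation enzyme Papola (0.0078). With 4 arrays such likeness mostly restates the strain difference.

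Other chitinase genes with a probe of their own showed no difference that passed. Of 7 listed relatives, 3 were measured in all pools, and 0 passed in limma, with 0 at an unadjusted p under 0.05. Chit1, chitotriosidase, differed by -0.00071, Chid1 by 0.060 ± 0.10 (SE) and the lysosomal chitobiase Ctbs by -0.011 ± 0.19. Chil6 and Ovgp1 had no value on any array. Chil4, also listed, has no probe of its own, and the probe it shares with Chil3 differed by 1.47. Against 1.71 for Chil3, Chit1, Chid1 and Ctbs lay near the median of all probes, -0.0020, while Chil4 could not be told apart from Chil3.

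Genes that induce Chil3 or are induced with it had smaller differences than Chil3. Of 20 type 2 immunity genes, 7 were measured, and 0 passed in limma, with 1 at an unadjusted p under 0.05 and a median of -0.074. That gene was Clca1 (0.20 ± 0.069), the only 1 of the 7 with a positive difference. The cytokine genes Il4, Il5 and Il13 had no value on any array, and Stat6 differed by -0.39 ± 0.20 and Gata3 by -0.31 ± 0.22. Of 14 genes of alternatively activated macrophages, 9 were measured, and 0 passed in limma, with 2 at an unadjusted p under 0.05 (15.8% of all probes were) and a median of 0.14. Those 2 were Arg1, which encodes arginase (0.48 ± 0.11, limma adjusted p = 0.1749), and Retnla, a resistin-like protein induced with Chil3 in such cells (0.35 ± 0.078, limma adjusted p = 0.1768). Retnla and Clca1 were named after their values were seen. So were S100a9, Prtn3, Lyz2, Clps, Pnliprp2, Ttr, Apoa1 and the T cell genes without a wild-type value named with the cell and organ markers. Arg1 read 13.15 and 13.18 in the congenic pools, against 12.75 and 12.61 in wild type. Clec10a, a lectin of the same cells, differed by -0.37 ± 0.23.

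Markers of macrophages and neutrophils, the cells from which Chil3 is best known, were set beside it. Which cells of these stomachs gave the Chil3 signal was not examined. Of 9 macrophage markers measured, 0 passed in limma (0 at an unadjusted p under 0.05), with a median of -0.068 and the largest differences in Mertk (-0.27 ± 0.23) and Aif1 (-0.21 ± 0.23). Their summed signal was 17.57 to 17.63 in congenic pools, against 17.58 to 17.63 in wild-type pools, and most of it came from Lyz2 (lysozyme, 16.70 and 16.86 in congenic pools, against 16.78 and 16.63 in wild type). Of the 9, 1 had a positive difference. Of 5 neutrophil markers measured, 0 passed in limma (2 at an unadjusted p under 0.05), with a median of 0.35, while 15.8% of all probes reached that p. These were Retnlg, a resistin-like protein (0.62 ± 0.12, limma adjusted p = 0.1491), and Csf3r, the receptor for granulocyte colony-stimulating factor (0.35 ± 0.11). S100a9, a calcium-binding protein abundant in neutrophils, differed by 0.037 ± 0.096 and the protease gene Prtn3 by -0.036 ± 0.71. Of the 5 neutrophil markers, 4 had a positive difference. The summed neutrophil signal was 18.32 to 18.37 in congenic pools, against 17.89 to 18.13 in wild-type pools, and most of it came from Csf3r (18.16 and 18.22 in congenic pools, against 17.97 and 17.70 in wild type), while Ngp and Camp had no value on any array. The part of neutrophils in the Chil3 difference was not tested, and in whole tissue a change in cell number and a change in RNA per cell cannot be told apart.

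On the antibody side, B and plasma cell markers showed no difference that passed. Of 23 listed, 16 had a probe of their own and 5 were measured in all pools. The listed immunoglobulin genes had no such probe. Of the 5 measured, 0 passed in limma (0 at an unadjusted p under 0.05), with a median of -0.20. Sdc1 (-0.27 ± 0.11) and Irf4 (-0.25 ± 0.13) differed most. Cd79a, the B cell receptor subunit, had values only in the congenic pools, 10.64 and 10.32, while Pou2af1, a B cell coactivator, had a value only in wild-type pool 2 (10.11), and both were named after that was seen. Ms4a1, Cd79b and Mzb1 had no value on any array. Of 5 measured genes of antibody induction and homing, 0 passed in limma (1 at an unadjusted p under 0.05), with a median of -0.089. The IgA-promoting cytokine Tnfsf13 (APRIL) differed by 0.41 ± 0.16 and the antibody receptor Trim21 by -0.38 ± 0.18.

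Genes that carry or control Pigr showed no difference that passed. Of 9 vesicle transport genes measured, 0 passed in limma (1 at an unadjusted p under 0.05), with a median of 0.061. That gene was the adaptor subunit Ap1m2 (-0.24 ± 0.077), and Yes1, a kinase of receptor transcytosis, differed by -0.29 ± 0.19. Of 9 known regulators of Pigr measured, 0 passed in limma (0 at an unadjusted p under 0.05), with a median of -0.13. Tlr3, a receptor for double-stranded RNA, differed by 0.47 ± 0.25, and Traf3ip2, the adaptor of interleukin 17 receptors, by 0.27 ± 0.14. Of 9 other secreted defence proteins measured, 0 passed in limma (1 at an unadjusted p under 0.05), with a median of -0.098. Dmbt1, a mucin-like scavenger protein that binds bacteria, read 15.15 and 15.12 in the congenic pools, against 14.66 and 14.35 in wild type (0.63 ± 0.12, limma adjusted p = 0.1302), and was the 1 gene of its list to pass without wild-type pool 1. Defb1 differed by -0.31 ± 0.25.

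Some transcripts of the pancreas and liver were higher, and some of skeletal muscle lower, in the same pools in which Chil3 and Pigr were higher. Of 15 exocrine pancreas markers measured, 10 rose and 0 fell in limma, with a median of 1.14. They were the elastases Cela2a (3.23 ± 0.081, limma adjusted p = 0.0002302) and Cela3b, the proteases Cpa1, Ctrb1, Cpb1, Prss1 and Prss3, the amylase Amy2a5, the lipase Cel and the lectin Reg1. Clps (-0.086 ± 0.14) and Pnliprp2 (-0.22 ± 0.11) had negative differences. The summed signal of the list was 21.37 to 21.41 in congenic pools, against 20.99 to 21.02 in wild-type pools. Of 9 liver markers, 2 rose (Alb, 1.52 ± 0.15, and the haem carrier Hpx, 1.50 ± 0.17) and 0 fell in limma, with a median of 0.70, and 0 passed without congenic pool 1 or without congenic pool 2. Ttr (0.050 ± 0.077) and Apoa1 (0.055 ± 0.073), the brightest of the list, differed least. The summed liver signal was 18.69 to 18.79 in congenic pools, against 18.60 to 18.61 in wild-type pools. Of 9 skeletal muscle markers, 3 fell (Acta1, Myl1 and Tnnt3) and 0 rose in limma, with a median of -1.08 and the largest difference in myoglobin (Mb, -1.77 ± 0.30), which did not pass. The pancreas count was 5 without congenic pool 1 and 6 without congenic pool 2, and the muscle count was 1 without congenic pool 1. The part of pancreatic or hepatic RNA in the differences of Chil3 and Pigr was not tested.

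Markers of the stomach's own epithelium showed no difference that passed. Which cells of these samples gave the Pigr signal was not examined. Of 4 chief cell markers, 0 passed in limma (2 at an unadjusted p under 0.05, against 15.8% of all probes), with a median of 0.45. All 4 had positive differences, with Cblif (0.64 ± 0.33) and Rnase1 (0.61 ± 0.11) farthest. Of 7 parietal cell markers, 0 passed in limma (1 at an unadjusted p under 0.05), with Kcnq1 (-0.24 ± 0.13) and Atp4a (-0.21 ± 0.079) farthest. Of 7 mucous cell markers, 0 passed in limma (0 at an unadjusted p under 0.05), with Muc6 (-0.45 ± 0.46) and Tff2 (0.14 ± 0.17) farthest. Gkn2, 1 of the 7, had a difference of 0 at the shared maximum of the arrays. It could therefore not show a higher congenic level. For the small intestine, 0 of 4 passed in limma (2 at an unadjusted p under 0.05), with Fabp1 at 0.57 ± 0.091 and Apoa4 at 0.21 ± 0.085, and the 1 salivary gland marker measured, Amy1, differed by -0.048 ± 0.12. Of 2 T and natural killer cell markers, Cd5 fell by 1.25 ± 0.10 (limma adjusted p = 0.00907), a call lost without congenic pool 1 and without congenic pool 2, and Nkg7 differed by 0.43 ± 0.23. Cd5 read 16.53 and 16.66 in the congenic pools, against 17.95 and 17.73 in wild type, and whether its probe reads T cells was not tested. Another 5 genes of the T and natural killer cell list (Cd3d, Cd3e, Cd3g, Zap70 and Gzmb) had values in congenic pools only. Cd3d read 12.07 in pool 1 and Zap70 11.27 and 10.12. No gene of the list had values in wild-type pools only. Over all probes, 2363 had values in congenic pools only and 1993 in wild-type pools only.

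**Figure D4:**
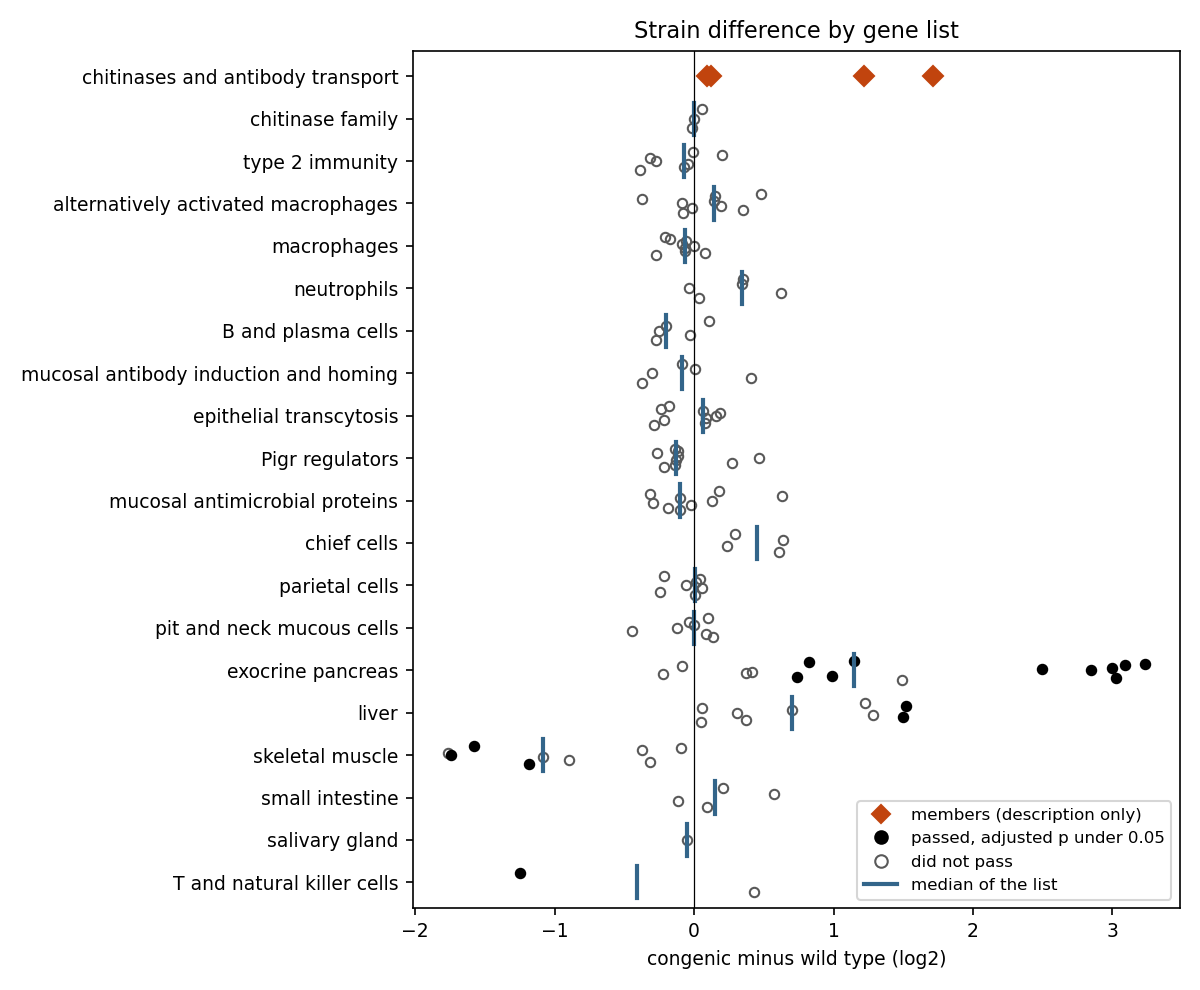
Strain difference (congenic minus wild type, log2) of the 4 measured members (diamonds, description only) and of each listed gene measured in all pools (circles, filled where the adjusted p in limma was under 0.05), with the median of each list as a bar. Filled circles lie in the exocrine pancreas, liver, skeletal muscle and T cell lists, and none in the lists for macrophages, neutrophils, type 2 immunity, plasma cells or Pigr regulators.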

How the data were processed

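Per the labels' protocols, 1 microgram of TRIzol-extracted stomach RNA was transcribed into digoxigenin-labelled cRNA. Values are log2 signals as the authors deposited them. Their normalization, log base and rule for blanks are not given in the sources used, and log2 was inferred from the range (6.73 to 21.2). Signal over background is unknown. Groups came from the sample titles.

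Probes were named through the platform annotation: of 33012, 14411 had 1 symbol, 247 several and 18354 none. Chromosomes, gene order and promoters came from RefSeq (GRCm38.p6), and 14402 probes matched it.

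Strains were compared with limma 3.58.1 in R 4.3.3 (eBayes with the mean-variance trend, two-sided, Benjamini-Hochberg over 13475 probes, threshold 0.05). The script was tested on simulated data, with the spread between pools shuffled over probes. There, 35% of added changes of 1 log2 unit and 76% of those of 2 log2 units passed. A gene that did not pass is therefore not shown to be unchanged. The members and the 19 lists were chosen with earlier results of these data known. Lists used the brightest probe of a gene. Named were list genes past the threshold and the 2 with the largest absolute difference per list, 5 measured neighbours on each side, and the 5 nearest patterns. Pools are 2 biological replicates per strain, and the number of arrays limits the precision. Alternatives were a replicate block, quantile normalization, median centring, brighter probes only, leaving out each pool, 1 blank allowed, no variance trend and averaging a gene's probes. A planned comparison of protein features was not made, as no protein sequences were used here. Figures used matplotlib 3.10.9.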

Additional observations from a re-analysis of the deposited data

How the results depend on the processing

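The differences of Chil3, Pigr, Jchain and Chia1 moved by less than the spread between pools under quantile normalization and median centring. The medians over the compared probes were already 12.82 on each array as deposited, so these settings had little to change. Some values also recur exactly between arrays. Psca read 20.8548 in congenic pool 1 and wild-type pool 2, and 19.5144 was read for Atp4a in congenic pool 2 and Gkn1 in wild-type pool 1. Quantile normalization before deposit would leave such repeats, so repeating it here is no independent check. Brighter probes only (Chia1, Pigr, Jchain and Chil3 all remained in that set) and 1 blank allowed only select probes, so they cannot move a probe's difference. Without single pools the differences ranged from 1.65 to 1.77 (Chil3), 1.13 to 1.30 (Pigr), 0.039 to 0.20 (Jchain) and 0.058 to 0.12 (Chia1). The count of 64 probes was 35 with the replicate number as a block, 20 without the variance trend and between 15 and 168 without single pools. Pool numbers did not pair the samples by the labels, and pool 1 minus pool 2 correlated between strains at -0.064 over probes. With the block, 1 liver gene passed, as with brighter probes only, where 3 liver genes were tested. Without the variance trend, 6 pancreas, 0 liver, 1 skeletal muscle and 0 T cell genes passed. Without single pools the counts ranged from 5 to 11 for pancreas, 0 to 3 for liver, 1 to 3 for skeletal muscle, and 0 to 1 each for T cells, chief cells and antimicrobial proteins. The cause was not tested.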
